A study of Mus musculus with 8 samples.

Results

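The organic anion and cation transporters described here are the genes whose symbol starts with Slc22a, Slc47a or Slco and a digit, or with Abcc or Abcg and digits, leaving out Abcg1. The rule found 56 genes among the 22180 genes named on the array, and 29 of them were among the 7145 genes with a mean level high enough to be tested. Kidneys of 8 mice aged 2 months were measured on 1 array each. They came from 3 Col4a3-/-OPN-/- mice (double mutants, without Col4a3 and osteopontin), 3 Col4a3-/- mice (single mutants, without Col4a3 alone) and 2 wild type mice. The mutant groups both lack Col4a3, a chain of basement membrane collagen whose loss models Alport syndrome, and the labels name no agent given to any group. The labels do not name the strain, the sex or the cells in which the alleles were deleted.

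These proteins move drugs, toxins, urate, bile acids, steroid conjugates and prostaglandins across cell membranes. In the kidney most of them sit in the proximal tubule, where some carriers take up organic anions and cations from blood and others release them into urine or reabsorb them from it. Several organic anion carriers of the mouse kidney are known to differ between males and females under the influence of sex hormones.

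Sex was therefore read from the arrays. Double mutants 1 and 2 and single mutants 1 and 3 had Xist levels from 8.85 to 10.02 on the log2 scale, a mark of females. In the other 4 mice Xist ranged from 4.52 to 4.64, while the mean of 3 Y-linked genes ranged from 7.01 to 7.21 there. Both wild type mice and 1 mouse in each mutant group (double mutant 3 and single mutant 2) thus read as male, so a plain comparison of a mutant with wild type holds a difference in sex as well. Col4a3 itself lay between 6.13 and 7.60 in double mutants, between 6.60 and 7.67 in single mutants and at 8.77 and 8.42 in wild type. Single mutant 2 stood apart over the 7145 tested genes, with a Pearson correlation of 0.865 to single mutant 1 and 0.839 to single mutant 3. That between these 2 females was 0.959, and single mutant 2 reached 0.948 with double mutant 3, the other male mutant. Transporter calls that were lost without it are given with their values. Whether the calls of the other genes named below hold without it was not tested.

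Of 8 proximal tubule markers 7 were measured (Lrp2, Cubn, Slc34a1, Slc5a2, Slc5a12, Slc7a13 and Aqp1), and all 7 were high enough to be tested. Their mean was 10.05, 9.81 and 10.51 in double mutants, 10.18, 9.59 and 10.45 in single mutants, and 11.26 and 11.31 in wild type. Slc7a13, which is far lower in females, carries much of this gap. The mean of the other 6 was 10.92, 10.61 and 10.66 in double mutants, 11.07, 9.66 and 11.30 in single mutants, and 11.29 and 11.33 in wild type, so that single mutant 3 was near wild type and single mutant 2 was lowest. In the fit with sex described next, 3 of the 7 were lower in double mutants and 4 of the 7 in single mutants (2 and 3 of the 6 without Slc7a13), and none was higher. In whole kidney, fewer proximal tubule cells and less RNA per cell cannot be told apart, and the part of these changes in the transporter results was not tested. Markers of adrenal gland and fat were low on every array, with means between 4.67 and 4.86 and between 5.06 and 5.76. The 4 liver markers were not all low. Ttr ranged from 8.80 to 11.61 and Alb from 4.88 to 8.04, while Apoa1 ranged from 5.25 to 5.98 and Serpina1a from 4.88 to 5.62. In the fit with sex, Ttr was lower in female than in male mutants (-1.51, adjusted p = 0.0189). The source of the Ttr and Alb signal was not tested.

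Levels are the deposited log2 values, so a difference of 1 is a change of the signal to 2 times or to 1/2 of it. A gene was tested when its mean over the 8 arrays exceeded 6.64, the 75th percentile of all probe sets. Differences were estimated with limma, once from the 3 genotypes alone and once with an added term for sex, and a gene passed when its Benjamini-Hochberg adjusted p over all 7145 genes was under 0.05. There was no wild type female, so this term rests on the mutants and assumes that wild type mice would have had the same difference between the sexes.

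In the fit with the sex term, 17 of the 29 transporters (58.6%) were lower in double mutants, where 17.8% of all tested genes were, and 16 of the 29 (55.2%) were lower in single mutants, where 19.9% of all tested genes were. None was higher, while 6.4% of all genes were higher in double mutants and 7.31% in single mutants. Other settings made Abcc1, Abcc3, Slco2b1 or Slco4a1 pass as higher, as given with these genes. The median difference of the transporters was -0.96 in double mutants and -0.89 in single mutants, and that of all tested genes -0.15 in each. The direction of all genes depends on scaling. They split into 457 higher and 1271 lower in double mutants as deposited, and 709 and 851 after cyclic loess, which moves the median of all genes to -0.04 and leaves 11 of the 29 transporters lower. In single mutants the split was 522 higher and 1424 lower, or 814 and 1029 after cyclic loess, where 11 transporters were lower. Of the 29, 23 were above the filter in every combination of genotype and sex, and 13 of these were lower in double mutants and 13 in single mutants. The other 6 (Abcc3, Slc22a17, Slc22a22, Slco1a1, Slco4a1 and Slco4c1) passed the filter although they were under it in at least 1 combination.

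Without the sex term no transporter passed in either comparison. Few genes did: 0.056% of all tested genes were higher and 0.028% lower in double mutants, and 0.014% were higher and 0.014% lower in single mutants. An unadjusted p under 0.05 was reached by 12 of the 29 transporters in each comparison, against 21.6% of all genes in double mutants and 23.2% in single mutants. Both comparisons share the 2 wild type arrays. Without single mutant 2 the fit with the sex term called 9 transporters in double mutants (Slc22a2, Slc22a4, Slc22a6, Slc22a8, Slc22a13, Slc22a18, Slc22a19, Slc22a22 and Slc22a28) and 0 in single mutants, and the fit without it called Slc22a2, Slc22a4, Slc22a6, Slc22a18, Slc22a22 and Slc47a1 in double mutants. Without wild type 2 the fit with the sex term called Slc22a13, Slc22a22 and Slco4c1 in double mutants, and these and Slc22a2 in single mutants. Without wild type 1 it called 9 and 11.

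Within 1 sex, the single male double mutant was set against the wild type males in a fit of the 5 combinations of genotype and sex, where it is assumed to vary like the other groups. There 9 transporters were lower and none higher (11.8% and 4.49% of all genes). The male single mutant had 18 lower and 1 higher (20% and 10% of all genes), and the higher 1 was Slco2b1. The female mutants of both genotypes lay above all 4 males for Abcc3, Abcc4 and Slco2a1 (4.11% of all genes did) and below all 4 for Slc22a28, Slco1a1 and Slco3a1 (2.37% of all genes did). Over both sexes the double mutants lay below both wild type mice for 13 transporters (28.8% of all genes) and above them for 4 (17.4%), and the single mutants for 10 (29.1%) and 5 (19.3%).

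**Figure D1:**
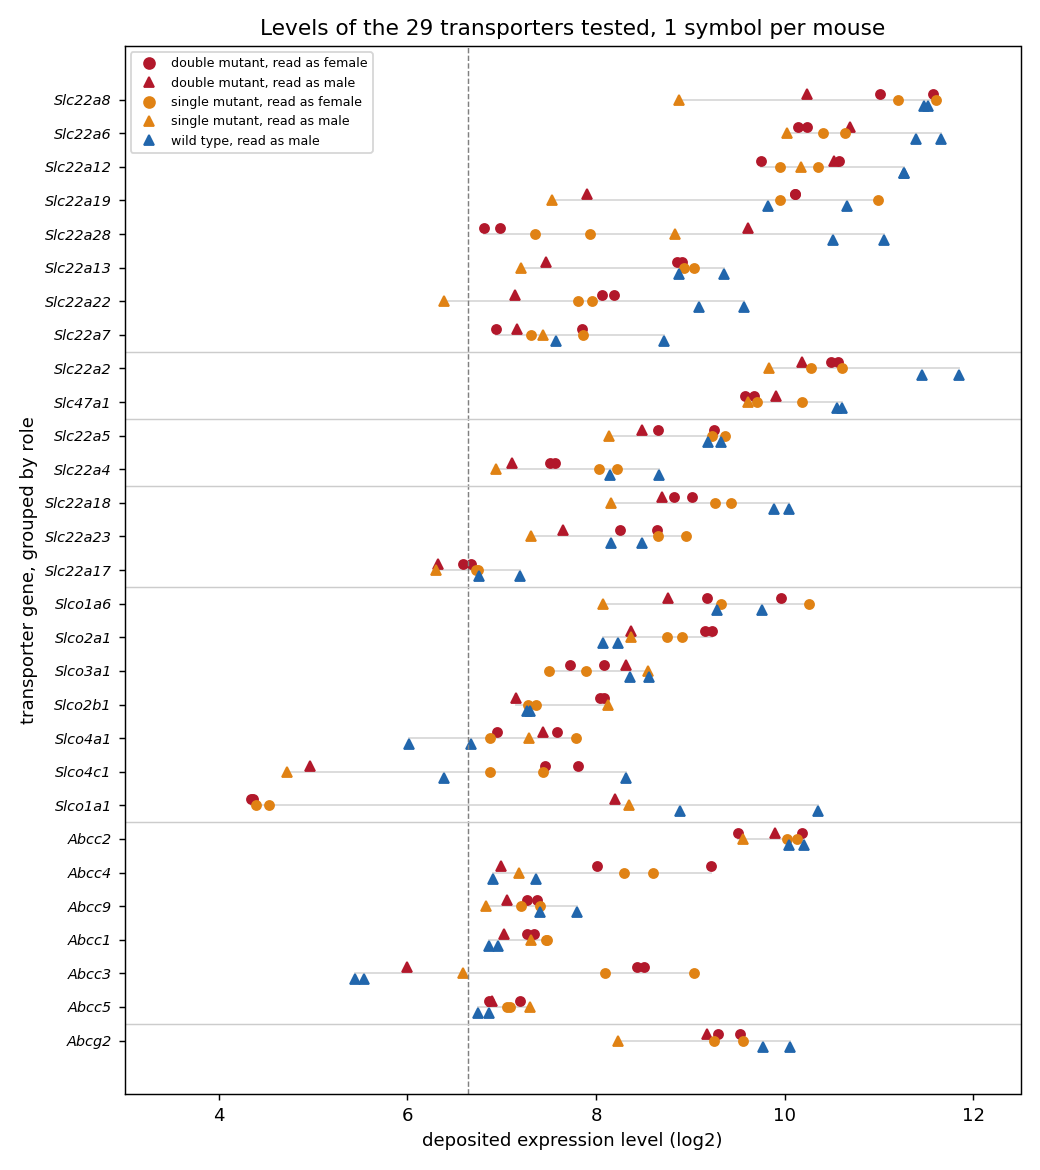
Deposited log2 level of the 29 tested transporters (x axis) in each mouse, with genes on the y axis grouped by role. Red is double mutant, orange single mutant and blue wild type, circles read as female and triangles as male, and the dashed line is the filter of 6.64. For Slco1a1 the 4 female mutants lie between 4.34 and 4.53, left of all 4 males, while for Slc22a6 all mutants of both sexes lie left of both wild type mice.

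The organic anion carriers of the Slc22 family include 13 genes, of which 8 were tested. Adjusted for sex, 6 of the 8 were lower in double mutants (median -1.71) and 7 of the 8 in single mutants (median -1.62). Slc22a19, Slc22a26, Slc22a27, Slc22a28, Slc22a29, Slc22a30, Slc22a8 and Slc22a6 follow each other on chromosome 19 with no other coding gene between them, in the RefSeq annotation of GRCm38.p6, and their levels took different courses.

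Slc22a6, or OAT1, takes up organic anions from blood in exchange for dicarboxylates. Its level was 10.14, 10.23 and 10.70 in double mutants, 10.40, 10.03 and 10.63 in single mutants, and 11.40 and 11.66 in wild type. The females lay below the male in double mutants (a difference of -0.51) and above the male in single mutants. Every mutant of either sex lay below both wild type mice. The difference was -1.16 (SE 0.28, adjusted p = 0.0242) for double mutants and -1.17 (SE 0.28, adjusted p = 0.0223) for single mutants with the sex term, a 2.24-fold and a 2.25-fold lower signal. Without the sex term the differences had the same size, -1.17 (SE 0.23, adjusted p = 0.0691) and -1.17 (SE 0.23, adjusted p = 0.078). Over both genotypes female and male mutants differed by -0.01 (SE 0.22, 95% interval from -0.53 to 0.51), which averages opposite gaps. Without single mutant 2 the difference of single mutants was -0.50 (adjusted p = 0.237) and that of double mutants -0.83 (adjusted p = 0.0306).

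Slc22a8, or OAT3, its neighbour with a similar task on the blood side, did not follow it. Its level was 11.57, 11.01 and 10.24 in double mutants, 11.20, 8.88 and 11.60 in single mutants, and 11.48 and 11.52 in wild type. Only the 2 male mutants lay far below wild type, and the 4 females lay around it. The difference between female and male mutants was 1.79 (SE 0.32, adjusted p = 0.0189), or 1.06 (adjusted p = 0.0901) without single mutant 2. The difference from wild type with the sex term was -1.75 (adjusted p = 0.0217) in double mutants and -2.13 (adjusted p = 0.0122) in single mutants, but -1.15 (adjusted p = 0.110) in single mutants without single mutant 2.

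The promoters of Slc22a6 and Slc22a8 are shown because the genes are neighbours and differ in their relation to sex. Both hold GTTAAT, the core of the element bound by HNF1, a transcription factor of proximal tubule and liver. Capitals mark GTTAAT, whose first base lies at -56 from the start of Slc22a6 and at -81 from the start of Slc22a8. Sequences are from RefSeq (GRCm38.p6), from 250 bases before to 50 bases after the gene's start, on the gene's strand. The first covers chr19:8617746-8618045 on the plus strand and the other chr19:8592932-8593231 on the plus strand.
Slc22a6: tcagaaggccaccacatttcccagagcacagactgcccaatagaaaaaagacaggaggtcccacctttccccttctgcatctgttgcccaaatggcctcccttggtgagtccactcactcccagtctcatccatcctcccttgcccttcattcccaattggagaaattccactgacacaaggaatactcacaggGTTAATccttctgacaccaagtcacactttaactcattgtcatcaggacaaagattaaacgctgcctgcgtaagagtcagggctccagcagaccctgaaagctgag
Slc22a8: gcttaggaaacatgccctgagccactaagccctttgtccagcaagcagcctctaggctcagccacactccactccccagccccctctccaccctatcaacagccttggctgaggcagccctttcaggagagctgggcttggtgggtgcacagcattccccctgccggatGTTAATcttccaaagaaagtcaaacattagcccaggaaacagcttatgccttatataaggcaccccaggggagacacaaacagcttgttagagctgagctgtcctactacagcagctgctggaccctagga
A promoter was matched for 45 of the 56 transporters, with 55 promoters in all. GTTAAT on either strand stood in 4 of these 55 (7.27%), those of Slc22a6, Slc22a8, Slc22a29 and Slco1b2, and in 7.1% of all 32851 promoters of this length.

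Slc22a19, an organic anion carrier of the urine side that takes steroid sulfates in the mouse, had the widest gap between the sexes among the tested transporters that were higher in females. Its level was 10.11, 10.11 and 7.91 in double mutants, 10.99, 7.53 and 9.95 in single mutants, and 9.82 and 10.66 in wild type. The 2 male mutants were lowest and the 4 female mutants reached the level of wild type males. The gap, female minus male mutants, was 2.57 (SE 0.34, adjusted p = 0.00773, 5.94-fold), or 2.21 (adjusted p = 0.0606) without single mutant 2. The sex-adjusted difference from wild type was -2.58 (SE 0.42, adjusted p = 0.0112) in double mutants and -2.47 (SE 0.42, adjusted p = 0.0106) in single mutants, or -1.98 (adjusted p = 0.111) without single mutant 2. Without the sex term it was -0.87 and -0.75, with adjusted p of 0.644 and 0.664.

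Slc22a28, a member of the rodent organic anion carrier cluster, ran the other way. Its level was 6.98, 6.82 and 9.61 in double mutants, 7.35, 8.83 and 7.94 in single mutants, and 10.51 and 11.06 in wild type. The order was the same in both mutants, with females lowest, the male between them and wild type males highest, and no overlap. In female minus male mutants the difference was -1.95 (SE 0.35, adjusted p = 0.0177, 3.86-fold), or -1.18 without double mutant 3, which did not pass. Against wild type the sex-adjusted difference was -1.68 (SE 0.43, adjusted p = 0.0299) in double mutants and -1.44 (SE 0.43, adjusted p = 0.0431) in single mutants. Without single mutant 2 that of single mutants was -0.42 (adjusted p = 0.520). The call held with 5 of the 8 arrays left out in turn in double mutants and with 3 in single mutants.

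Slc22a30, next but 1 to Slc22a28, had the same order of sexes at a level under the filter: it ranged from 4.38 to 4.62 in female mutants, from 5.97 to 6.24 in male mutants and from 6.43 to 7.56 in wild type. Slc22a29 lies between the 2 and ranged from 4.59 to 5.70 in female mutants, from 4.26 to 4.28 in male mutants and from 4.26 to 4.39 in wild type. In a fit of all genes without a filter, female minus male mutants was -1.64 (adjusted p = 0.0668) for Slc22a30 and 0.96 (adjusted p = 0.0907) for Slc22a29, and neither passed. Slc22a26 ranged from 5.22 to 5.71 in double mutants, from 5.18 to 5.70 in single mutants and from 6.59 to 7.14 in wild type, a difference of -1.41 in each mutant without the sex term (adjusted p = 0.101 and 0.0996 in that fit).

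The promoters of Slc22a28 and Slc22a30 are printed because their genes share the order of sexes, with that of Slc22a29 beside them. They cover chr19:8131933-8132232, chr19:8405056-8405355 and chr19:8218851-8219150, all on the minus strand (RefSeq, GRCm38.p6). In the first sequence capitals mark letters that differ from Slc22a30 or face a gap in it, and in the other sequences letters that differ from Slc22a28 or face a gap in it.
Slc22a28: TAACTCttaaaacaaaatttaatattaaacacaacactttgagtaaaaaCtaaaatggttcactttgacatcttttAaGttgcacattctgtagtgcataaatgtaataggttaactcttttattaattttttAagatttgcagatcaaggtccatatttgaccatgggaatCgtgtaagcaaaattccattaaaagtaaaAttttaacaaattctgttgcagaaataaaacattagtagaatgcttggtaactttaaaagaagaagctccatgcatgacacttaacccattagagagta
Slc22a30: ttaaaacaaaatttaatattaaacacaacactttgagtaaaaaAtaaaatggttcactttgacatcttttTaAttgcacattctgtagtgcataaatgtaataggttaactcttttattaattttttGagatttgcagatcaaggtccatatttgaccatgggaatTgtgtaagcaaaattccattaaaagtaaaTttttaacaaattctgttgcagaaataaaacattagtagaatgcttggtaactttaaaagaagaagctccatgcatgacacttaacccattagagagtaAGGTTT
Slc22a29: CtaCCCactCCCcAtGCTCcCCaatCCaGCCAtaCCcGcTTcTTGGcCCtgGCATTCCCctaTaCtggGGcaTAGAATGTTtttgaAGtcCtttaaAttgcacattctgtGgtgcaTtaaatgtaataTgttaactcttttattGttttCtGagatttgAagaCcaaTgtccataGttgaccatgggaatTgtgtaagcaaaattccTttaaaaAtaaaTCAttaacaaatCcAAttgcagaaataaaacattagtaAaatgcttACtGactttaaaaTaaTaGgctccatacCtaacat
The promoters of Slc22a28 and Slc22a30 were identical at 288 of 294 aligned bases (98.0%), those of Slc22a28 and Slc22a29 at 217 of 281 (77.2%), and those of Slc22a29 and Slc22a30 at 78.5%. Where the transcripts are as alike as these promoters, probes for one gene could bind the RNA of the other, and this was not tested.

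**Figure D2:**
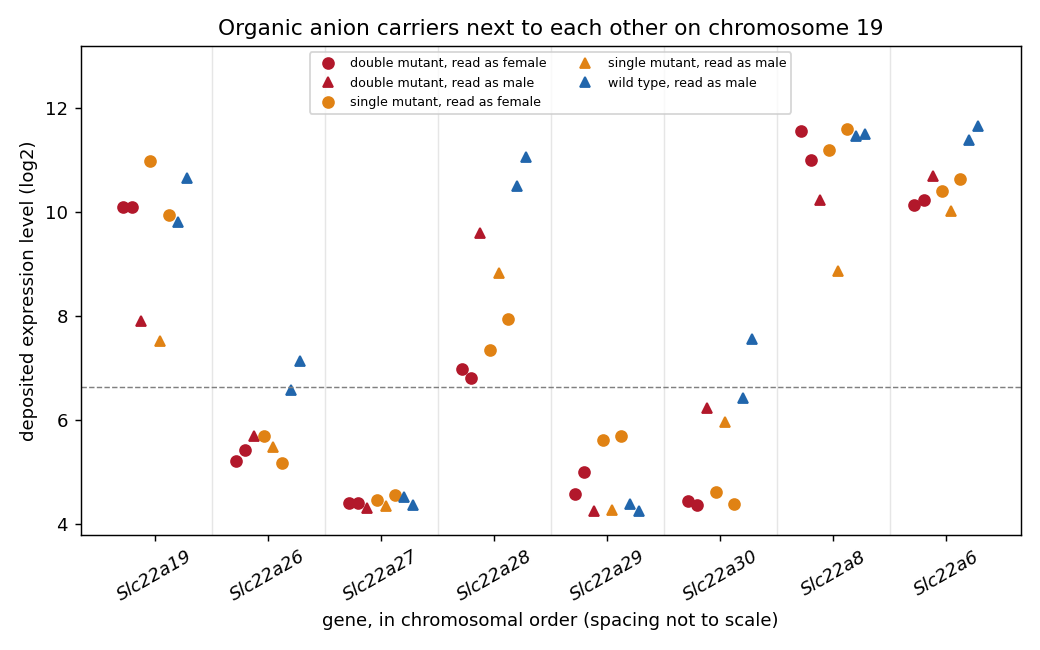
Deposited log2 level (y axis) of the 8 neighbouring carrier genes of chromosome 19 in chromosomal order (x axis, not to scale), 1 symbol per mouse, with double mutants left of single mutants and wild type. Circles read as female and triangles as male, and the dashed line is the filter of 6.64. The 2 male mutants are lowest for Slc22a19 and Slc22a8 and lie between females and wild type for Slc22a28.

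The other tested organic anion carriers lie outside this run. Slc22a12, or URAT1, reabsorbs urate from the tubular fluid. Its level was 10.58, 9.75 and 10.52 in double mutants, 9.95, 10.17 and 10.35 in single mutants, and 11.26 and 11.27 in wild type. All 6 mutants lay below both wild type mice, and female and male mutants differed by -0.19 (SE 0.24). It passed in single mutants (-0.98, adjusted p = 0.0435) and not in double mutants (-0.86, adjusted p = 0.0676), and the 2 mutants differed by 0.13 (95% interval from -0.39 to 0.64). The single mutants were at -0.75 (adjusted p = 0.307) without single mutant 2, and the call held with 3 of the 8 arrays left out in turn.

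Slc22a22, which carries prostaglandins in the mouse kidney, was lower in every mutant than in both wild type mice. Its level was 8.19, 8.07 and 7.14 in double mutants, 7.96, 6.39 and 7.81 in single mutants, and 9.09 and 9.57 in wild type. Adjusted for sex the difference was -2.36 (SE 0.22, adjusted p = 0.00407) in double mutants and -2.77 (SE 0.22, adjusted p = 0.00531) in single mutants, a 5.12-fold and a 6.82-fold lower signal. Slc22a13, a carrier of nicotinate and urate, was 8.85, 8.91 and 7.47 in double mutants, 8.93, 7.20 and 9.04 in single mutants, and 8.88 and 9.36 in wild type. Its 4 female mutants overlapped with wild type, its 2 male mutants did not, and with the sex term it was -1.77 (adjusted p = 0.00499) in double mutants and -1.79 (adjusted p = 0.00572) in single mutants. In double mutants these 2 genes passed with each of the 8 arrays left out in turn, and in single mutants with each except single mutant 2, where Slc22a22 was at -2.43 (adjusted p = 0.0583) and Slc22a13 at -1.54 (adjusted p = 0.0643). Slc22a7, or OAT2, ranged from 6.94 to 7.85 in double mutants, from 7.31 to 7.86 in single mutants and from 7.58 to 8.72 in wild type, with differences of -0.96 and -0.74 that did not pass.

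The organic cation carriers and antiporters include 3 genes, of which 2 were tested, and both were lower in both mutants with the sex term. Slc22a2, or OCT2, takes up cations such as creatinine and metformin from blood. Its level was 10.49, 10.57 and 10.19 in double mutants, 10.28, 9.83 and 10.61 in single mutants, and 11.46 and 11.85 in wild type. Every mutant lay below both wild type mice. The sex-adjusted difference was -1.56 (SE 0.20, adjusted p = 0.00753, 2.95-fold) in double mutants and -1.73 (SE 0.20, adjusted p = 0.00584, 3.33-fold) in single mutants, or -1.55 (adjusted p = 0.0683) without single mutant 2. Without the sex term it was -1.24 (adjusted p = 0.0691) in double mutants and -1.41 (adjusted p = 0.0682) in single mutants.

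Slc47a1, or MATE1, releases the same kind of cations into urine in exchange for protons. Its level was 9.67, 9.58 and 9.91 in double mutants, 9.70, 9.61 and 10.18 in single mutants, and 10.55 and 10.60 in wild type. Females lay below the male in double mutants (a difference of -0.28) and above the male in single mutants. Over both genotypes female and male mutants differed by 0.03 (SE 0.18). No mutant overlapped with wild type. The difference from wild type was -0.88 (SE 0.23, adjusted p = 0.0321) in double mutants and -0.76 (SE 0.23, adjusted p = 0.0446) in single mutants with the sex term. Without single mutant 2 these values were -0.67 (adjusted p = 0.0742) and -0.35 (adjusted p = 0.447). The call held with 3 of the 8 arrays left out in turn in double mutants and with 2 in single mutants.

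The carnitine and zwitterion carriers include 4 genes, of which Slc22a5 and Slc22a4 were tested and both were lower with the sex term. Slc22a5, or OCTN2, reabsorbs carnitine and was 9.25, 8.66 and 8.49 in double mutants, 9.36, 8.14 and 9.23 in single mutants, and 9.32 and 9.19 in wild type. Both mutants overlapped with wild type, and the sex term gave -0.996 (adjusted p = 0.0323) in double mutants and -0.89 (adjusted p = 0.0423) in single mutants. Slc22a4, or OCTN1, a carrier of ergothioneine, was 7.56, 7.51 and 7.11 in double mutants, 8.03, 6.94 and 8.22 in single mutants, and 8.15 and 8.67 in wild type. All double mutants lay below wild type. The sex term gave -1.55 (SE 0.26, adjusted p = 0.0112) in double mutants and -1.21 (SE 0.26, adjusted p = 0.0170) in single mutants, and the 2 mutants differed by -0.34 (95% interval from -0.80 to 0.12). Leaving out single mutant 2, Slc22a5 was at -0.77 (adjusted p = 0.0761) in double mutants and -0.43 (adjusted p = 0.426) in single mutants. Slc22a4 was then at -1.30 (adjusted p = 0.0201) in double mutants and -0.71 (adjusted p = 0.195) in single mutants. The call of Slc22a5 held with 4 of the 8 arrays left out in turn in double mutants and with 3 in single mutants.

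Of the 6 other Slc22 members, 3 were tested. Slc22a18, which lies in an imprinted region and whose substrates are little known, was 8.83, 9.02 and 8.70 in double mutants, 9.26, 8.16 and 9.43 in single mutants, and 9.88 and 10.05 in wild type. All 6 mutants lay below wild type, by -1.58 (adjusted p = 0.0112) in double mutants and -1.48 (adjusted p = 0.0108) in single mutants with the sex term, or -0.84 (adjusted p = 0.0941) in single mutants without single mutant 2. Slc22a17, described as a receptor of lipocalin 2, was 6.68, 6.58 and 6.32 in double mutants, 6.73, 6.31 and 6.75 in single mutants, and 6.76 and 7.19 in wild type. The mutants lay below wild type by a small margin and on both sides of the filter. The differences were -0.70 (adjusted p = 0.0288) in double mutants and -0.63 (adjusted p = 0.0353) in single mutants. Without single mutant 2 they were -0.66 (adjusted p = 0.0684) and -0.55 (adjusted p = 0.235). Each call held with 2 of the 8 arrays left out in turn. Slc22a23, whose substrates are unknown, was 8.65, 8.25 and 7.65 in double mutants, 8.66, 7.31 and 8.95 in single mutants, and 8.16 and 8.49 in wild type. The male mutants were lowest and the females lay around wild type. It passed in double mutants (-0.91, adjusted p = 0.0407) and not in single mutants (-0.78, adjusted p = 0.0582), with a difference between the mutants of -0.12 (95% interval from -0.58 to 0.33). The double mutants were at -0.67 (adjusted p = 0.0958) without single mutant 2, and the call held with 2 of the 8 arrays left out in turn.

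The Slco family, the organic anion transporting polypeptides, has 15 genes here, of which 7 were tested. Adjusted for sex, 2 of the 7 were lower in double mutants (median -0.0016) and 1 in single mutants (median -0.06). Slco1a1 takes up bile acids and steroid conjugates and is known to be far higher in male than in female mouse kidney. Its level was 4.34, 4.36 and 8.20 in double mutants, 4.39, 8.35 and 4.53 in single mutants, and 8.89 and 10.35 in wild type. All 4 females lay below the lower quartile of all probe sets (4.62), while every male lay above the filter. Female minus male mutants was -3.87 in the fit (SE 0.34, adjusted p = 0.00312). Since the female values lie at the low end of the array, this size depends on that low end. With every value under the median of all values (5.20) set to it, the difference was -3.07 (adjusted p = 0.0047), so that the signal was at least 8.42-fold lower in females. The difference of double mutants from wild type was -3.99 (adjusted p = 0.184) without the sex term and -1.41 (adjusted p = 0.0486) with it, or -1.37 (adjusted p = 0.0521) with that floor. That of single mutants was -3.86 (adjusted p = 0.182) and -1.28 (adjusted p = 0.0593). The call in double mutants held with 1 of the 8 arrays left out in turn, wild type 1, and was lost with each of the other 7. Without single mutant 2 the difference was -1.42, which did not pass.

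Slco4c1, a carrier of digoxin, thyroid hormone and uremic toxins on the blood side of the proximal tubule, was 7.81, 7.46 and 4.97 in double mutants, 6.87, 4.73 and 7.44 in single mutants, and 8.32 and 6.39 in wild type. The 2 male mutants were lowest, and the females lay between the 2 wild type values, which are far apart. Female minus male mutants was 2.55 (SE 0.47, adjusted p = 0.0192), and the sex-adjusted difference from wild type was -2.31 (adjusted p = 0.0283) in double mutants and -2.71 (adjusted p = 0.0169) in single mutants. The male mutants lie under the median of all values, and with the floor at that median the 3 differences were 2.19 (adjusted p = 0.0304), -1.99 (adjusted p = 0.0451) and -2.31 (adjusted p = 0.0274), which bound their sizes from below. Without single mutant 2, and with no floor, the 3 differences were 2.67 (adjusted p = 0.0926), -2.39 (adjusted p = 0.0566) and -2.87 (adjusted p = 0.116), and none passed. The call between the sexes held with 4 of the 8 arrays left out in turn. Slco1a6, a kidney carrier of the same subfamily as Slco1a1 and 1 coding gene away from it on chromosome 6, leaned to the opposite sex: it was 9.96, 9.18 and 8.76 in double mutants, 10.25, 8.07 and 9.33 in single mutants, and 9.29 and 9.75 in wild type. Female minus male mutants was 1.26 (SE 0.35, adjusted p = 0.0587), which did not pass.

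Of the other Slco genes, Slco2a1, the prostaglandin transporter, was 9.23, 9.15 and 8.37 in double mutants, 8.75, 8.36 and 8.91 in single mutants, and 8.07 and 8.23 in wild type. All mutants lay above wild type, yet the sex-adjusted difference was 0.34 (adjusted p = 0.154) in double mutants and 0.10 (adjusted p = 0.672) in single mutants. Female minus male mutants was 0.64 (SE 0.13, adjusted p = 0.0249), which passed, and 0.82 (adjusted p = 0.0567) without single mutant 2. This call held with 3 of the 8 arrays left out in turn. Slco4a1, a thyroid hormone carrier, was 6.95, 7.59 and 7.44 in double mutants, 7.78, 7.29 and 6.87 in single mutants, and 6.67 and 6.01 in wild type. All mutants lay above wild type again, by 1.03 (adjusted p = 0.0832) in double mutants and 1.02 (adjusted p = 0.0815) in single mutants. Neither value passed, though the value in double mutants did without single mutant 1. Slco3a1 averaged 8.04 ± 0.30 in double mutants, 7.98 ± 0.53 in single mutants (SD, n = 3 each) and 8.46 ± 0.14 in wild type (SD, n = 2), and female minus male mutants was -0.63 (adjusted p = 0.0641), which passed after quantile normalization or cyclic loess.

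The Abcc family has 10 genes, of which 6 were tested, and Abcc9 alone was lower with the sex term. Abcc3, or MRP3, an efflux pump of the blood side for glucuronides, was 8.43, 8.51 and 5.99 in double mutants, 9.04, 6.58 and 8.09 in single mutants, and 5.54 and 5.45 in wild type. The order was wild type lowest, then the male mutants, then the female mutants, with no overlap. Female minus male mutants was 2.23 (SE 0.25, adjusted p = 0.00472, 4.69-fold) and passed with each array left out in turn. Double mutants against wild type gave 2.15 (adjusted p = 0.21) without the sex term and 0.67 (adjusted p = 0.148) with it. Single mutants gave 2.41 (adjusted p = 0.165) and 0.92 (adjusted p = 0.0621). None of these 4 passed, though Abcc3 passed as higher in single mutants without single mutant 3 and in both mutants with the replicate number as a block.

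Abcc4, or MRP4, which releases cyclic nucleotides, urate and drugs into urine, was 9.22, 8.01 and 6.99 in double mutants, 8.29, 7.18 and 8.61 in single mutants, and 7.36 and 6.90 in wild type. The 4 females lay above all 4 males, and female minus male mutants was 1.45 (SE 0.32, adjusted p = 0.0328). This did not pass without single mutant 2 (1.62, adjusted p = 0.116). Between the sexes Abcc4 passed with 3 of the 8 arrays left out in turn. Its sex-adjusted difference from wild type was -0.03 in double mutants and -0.07 in single mutants. Abcc2, or MRP2, the conjugate pump of the urine side, was 10.19, 9.50 and 9.89 in double mutants, 10.02, 9.56 and 10.13 in single mutants, and 10.21 and 10.04 in wild type, and passed no test. Abcc1, or MRP1, ranged from 7.02 to 7.34 in double mutants and from 7.30 to 7.48 in single mutants, all above the 6.96 and 6.87 of wild type. Its difference was 0.15 (adjusted p = 0.424) in double mutants and 0.35 (adjusted p = 0.079) in single mutants, and the single mutant value passed without the filter and after cyclic loess. Abcc5, which exports cyclic nucleotides, ranged from 6.87 to 7.20 in double mutants, from 7.05 to 7.30 in single mutants and from 6.75 to 6.87 in wild type, and did not pass.

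Abcc9 is no pump but the sulfonylurea receptor subunit of potassium channels of vascular smooth muscle and pericytes. It was 7.26, 7.37 and 7.06 in double mutants, 7.41, 6.83 and 7.20 in single mutants, and 7.80 and 7.40 in wild type. The sex-adjusted difference was -0.61 (adjusted p = 0.048) in double mutants and -0.70 (adjusted p = 0.0305) in single mutants. It passed in double mutants with none of the 8 arrays left out, and in single mutants with 3 of them. When single mutant 2 was left out it was -0.54 (adjusted p = 0.112) in double mutants and -0.55 (adjusted p = 0.241) in single mutants. Of the 4 pericyte and smooth muscle markers, Acta2 was higher (1.29, adjusted p = 0.00841 in double mutants and 0.91, adjusted p = 0.0134 in single mutants), Pdgfrb and Rgs5 did not pass, and Kcnj8, the channel partner of Abcc9, was under the filter. Abcg2, or BCRP, an exporter of urate and drugs and the only 1 of 5 Abcg genes tested, was 9.53, 9.29 and 9.18 in double mutants, 9.25, 8.23 and 9.56 in single mutants, and 9.77 and 10.06 in wild type. All mutants lay below wild type. The sex term gave -1.05 (adjusted p = 0.033) in double mutants, or -0.74 (adjusted p = 0.0579) without single mutant 2. In single mutants it gave -1.37 (adjusted p = 0.015), or -0.75 (adjusted p = 0.157) without that mouse. The call held with 3 of the 8 arrays left out in turn in double mutants and with 6 in single mutants.

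**Figure D3:**
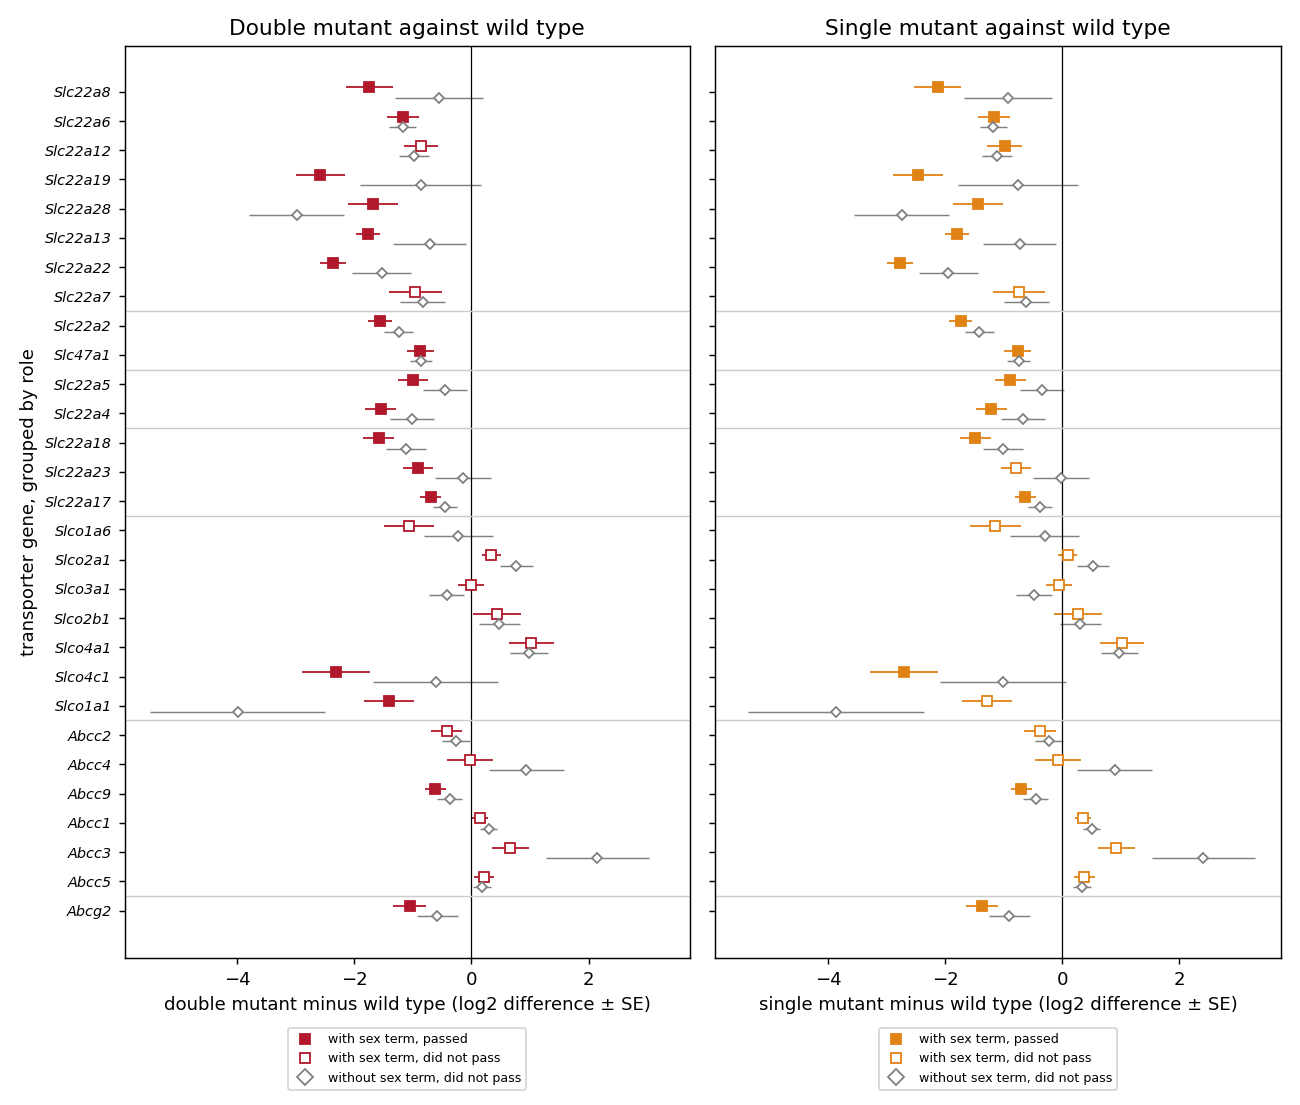
Difference from wild type (x axis, log2, with its SE) of the 29 tested transporters (y axis, grouped by role) in double mutants (left) and single mutants (right). Squares are from the fit with the sex term, filled where the adjusted p was under 0.05, and grey diamonds from the fit without it, where none passed. For Slc22a6 and Slc47a1 the estimates nearly coincide, while Slco1a1 moves toward 0 and Slc22a19 and Slc22a8 away from it when the sex term is added.

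Female and male mutants were compared for the same 29 genes. Higher in females were 9 (31%), namely Slc22a19, Slco4c1, Abcc3, Slc22a8, Slc22a13, Abcc4, Slc22a22, Slc22a23 and Slco2a1, with differences from 0.64 to 2.57. Lower in females were 2 (6.9%), Slco1a1 and Slc22a28. Among the 23 transporters above the filter in every combination of genotype and sex, 6 were higher and 1 lower. Of the rest, Abcc3 and Slco4c1 (higher) and Slco1a1 (lower) passed the filter only through the combinations where they were high. Slc22a22, also higher, was under the filter only in single mutant 2 (6.39). Among all tested genes 8.22% were higher and 1.97% lower in females. The split of all genes was 587 higher and 141 lower as deposited and 369 and 222 after cyclic loess, under which Slco3a1 was lower in females as well. The ranges of the 4 female and 2 male mutants did not overlap for 20 transporters, 17 higher in females (29% of all genes) and 3 lower (10.8% of all genes). The smallest differences between the sexes among carriers that were lower in the mutants were those of Slc22a6, given above, and Slc47a1 at 0.03 (95% interval from -0.40 to 0.45). Both are averages of opposite gaps. The females lay below the male in double mutants (-0.51 for Slc22a6 and -0.28 for Slc47a1) and above the male in single mutants. Without single mutant 2, 5 transporters passed: Abcc3, Slc22a13, Slc22a28, Slco1a1 and Slco2b1. Slc22a22 then had 0.98 (adjusted p = 0.07) in place of 1.24 (adjusted p = 0.00974), and Slc22a23 0.80 (adjusted p = 0.126) in place of 1.15 (adjusted p = 0.0189). Without double mutant 1 it was 6 and without single mutant 3 it was 7. Of the 11 that passed with all arrays, only Abcc3, Slc22a13 and Slco1a1 passed with each of the 8 arrays left out. In the fit of the 5 combinations of genotype and sex, 3 transporters were higher and 2 lower in female than in male double mutants (1.55% and 0.392% of all genes). Among single mutants 10 were higher and 2 lower in females (6.35% and 3.43% of all genes). Abcc3, Slc22a13 and Slco1a1 passed in each, on values without the floor. Abcc3 differed by 2.48 in double mutants and 1.98 in single mutants, and Slc22a13 by 1.41 and 1.79. With the floor Slco1a1 differed by -3.00 and -3.15, which are bounds and were not tested themselves.

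Wild type females were not measured, so a difference between the sexes that exists in healthy kidneys and a difference in how far the disease had gone cannot be told apart. The 4 tubule injury markers Havcr1, Lcn2, Krt18 and Vcam1 had a mean of 8.08, 9.20 and 9.46 in double mutants, 8.09, 9.05 and 7.49 in single mutants, and 5.79 and 6.54 in wild type, so that in each mutant group the male was highest. All 4 were higher in double mutants with the sex term, and 3 of the 4 in single mutants, where Havcr1 did not pass. Of these markers Krt18 was lower in females past the threshold (-0.85, adjusted p = 0.0192). Their part in the sex differences of the transporters was not tested. In the 2 male mutants alone, 21 of the 29 transporters lay below both wild type males (47.5% of all genes did) and 5 above them (24.9% of all genes).

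**Figure D4:**
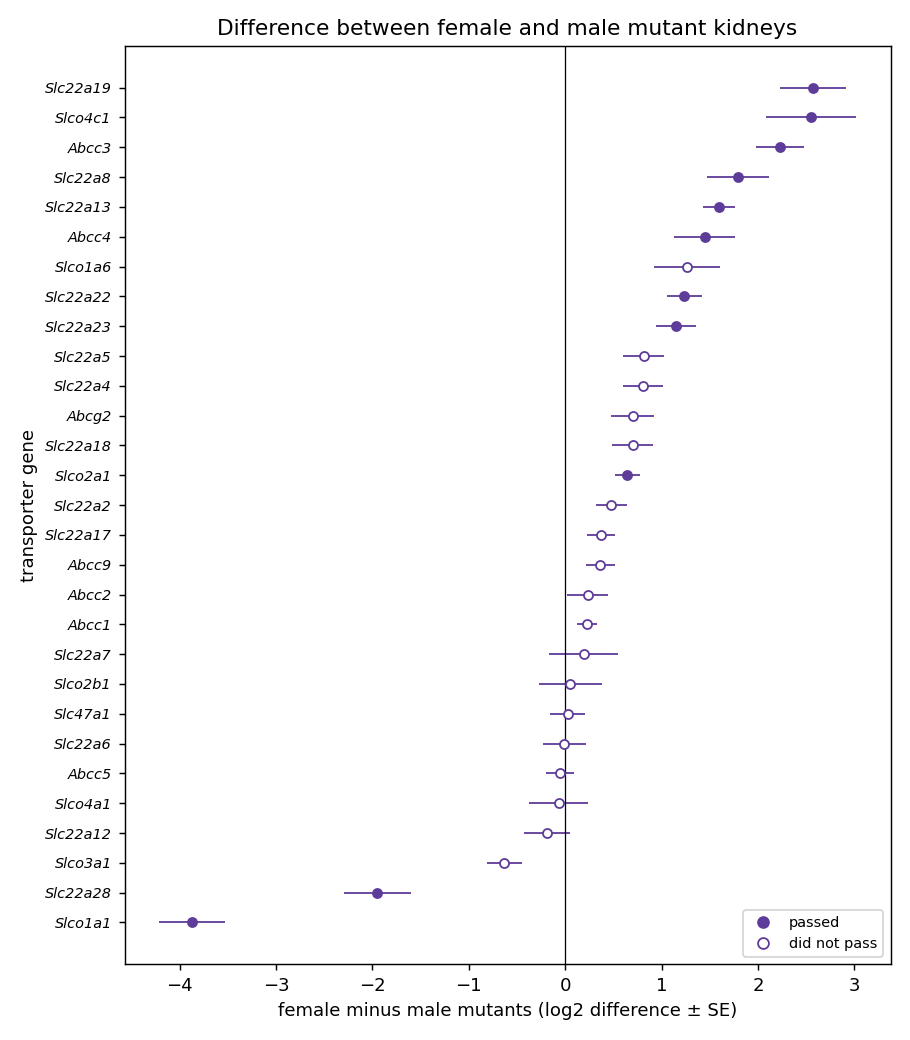
Difference between female and male mutants (x axis, log2, with its SE) for the 29 tested transporters (y axis), from the fit with genotype and sex. Filled symbols had an adjusted p under 0.05. Slc22a19, Slco4c1 and Abcc3 lie above 2, Slc22a6 and Slc47a1 near 0, and Slco1a1 at -3.87, where the female values lie at the low end of the array. For Slc22a6 and Slc47a1 the difference had opposite signs in double and single mutants.

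Double and single mutants were compared to ask whether the loss of osteopontin goes with another level of these transporters. In limma none of the 29 passed with or without the sex term, and neither did any of the 7145 genes (0%). Without the sex term 0 of the 29 had an unadjusted p under 0.05, and with it 1 had (3.45%, against 3.82% of all genes), namely Slc22a22 at 0.41 (95% interval from 0.03 to 0.80). The sex-adjusted differences ran from -0.34 (Slc22a4) to 0.41, with a median of 0.0032. The 95% intervals reached furthest for Slco4c1, from -0.62 to 1.42. No transporter had levels that did not overlap between the mutants, where 2.02% of all genes were higher and 3% lower in double mutants without overlap.

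The comparison of double with single mutants differed most between the sexes for Slco2b1, a carrier of steroid sulfates and drugs. Its level was 8.04, 8.09 and 7.15 in double mutants, 7.28, 8.13 and 7.37 in single mutants, and 7.30 and 7.26 in wild type. High were the 2 female double mutants and the male single mutant, and the other 5 arrays lay between 7.15 and 7.37. Double minus single mutant was 0.74 in females and -0.98 in males, a difference of 1.73 (SE 0.21, adjusted p = 0.0518) in a fit of the 5 combinations of genotype and sex, which did not pass. It passed with the filter at the 50th percentile, after quantile normalization, after median centring and with an intensity trend and robust prior. Within a genotype, females against males passed with opposite signs, 0.92 (adjusted p = 0.0375) in double mutants and -0.81 (adjusted p = 0.0198) in single mutants. Each male group is 1 mouse, so the value rests on single mutant 2 and double mutant 3. Other transporters also differed between the sexes here, on the same 2 males. Double minus single mutant was -0.11 in females and 1.36 in males for Slc22a8, 0.01 and 0.94 for Abcg2, and -0.33 and 0.67 for Slc22a6. It was below 0 for 19 of the 29 transporters in females (46.8% of all genes) and for 8 in males (56.2% of all genes). Without double mutant 3 Slco2b1 passed as higher in both mutants against wild type. A further probe set of the gene, with a mean of 4.83, lay between 4.74 and 5.06.

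The 27 transporters under the filter ranged from 4.26 to 7.56 over single arrays, and 17 of them stayed below the median of all probe sets (5.22) on every array. They include Abcc6, Abcc8, Abcc10, Abcc12, Abcg3, Abcg4, Abcg5, Abcg8, Slc47a2, Slc22a14, Slc22a15, Slc22a16, Slc22a20, Slc22a21, Slc22a27, Slc22a13b, Slco1a4, Slco1a5, Slco1b2, Slco1c1, Slco5a1, Slco6b1, Slco6c1 and Slco6d1, beside the 3 of the chromosome 19 run named above. In the fit of all 22180 genes without a filter none of the 27 passed in any comparison. Slco1a4, a bile acid and digoxin carrier, had a mean of 5.16 ± 0.09 in double mutants, 4.97 ± 0.11 in single mutants (SD, n = 3 each) and 5.69 ± 0.28 in wild type (SD, n = 2).

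Genes that work with these carriers were taken as 3 lists. Of 6 listed genes that set the ion and dicarboxylate gradients 4 were tested. Among them Slc13a3 takes up the dicarboxylates that Slc22a6 and Slc22a8 exchange. With the sex term it differed by -1.54 (adjusted p = 0.0175) in double mutants and -1.77 (adjusted p = 0.0114) in single mutants. Without that term it was -0.55 (adjusted p = 0.622) and -0.79 (adjusted p = 0.449). Its female mutants ranged from 10.65 to 11.39 around wild type (11.24 and 11.18), and its male mutants were at 9.94 and 9.17. Slc9a3, the sodium and proton exchanger, passed in double mutants (-1.11, adjusted p = 0.0355), which makes 2 of 4 tested genes there and 1 of 4 in single mutants. Of 19 listed scaffolds and regulators 11 were tested. Hnf4a, a transcription factor that activates several of these genes, differed by -0.76 (adjusted p = 0.0243) in double mutants and -0.63 (adjusted p = 0.0378) in single mutants. Slc9a3r1, a scaffold of the urine side, differed by -0.75 (adjusted p = 0.0252) in double mutants and -0.67 (adjusted p = 0.0313) in single mutants. The other 9 did not pass, among them the nuclear receptors and regulators Nr1h4, Ppara, Nfe2l2, Esr1 and Ghr. Of 18 listed transporters outside the rule 9 were tested, and 4 were lower in each mutant. They were Slc17a1, a phosphate and anion carrier, Slc15a2, a peptide carrier, Slc16a9 and Slc29a3, with differences from -1.60 to -1.15. No gene of the 3 lists was higher. Without the sex term no gene of these lists passed against wild type. For Slc15a2 the female mutants ranged from 8.39 to 8.61 and the male mutants were at 7.10 and 7.07, beside 8.46 and 8.69 in wild type. Abcb1b, an efflux pump for drugs, was higher in female than in male mutants by 2.01 (adjusted p = 0.0223), as were Slc13a3 by 1.48 (adjusted p = 0.0173) and Slc15a2 by 1.43. With the sex term Lyz2 and Cd68, 2 of 3 tested macrophage markers, were higher in both mutants. Lyz2 differed by 4.12 (adjusted p = 0.00619) in double mutants and 3.68 (adjusted p = 0.00758) in single mutants, and the macrophage markers' part in the transporter values was not tested.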

How the data were processed

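RNA of 8 kidneys was measured on 1 array per mouse. The authors deposited 1 table of log2 expression values for 33793 probe sets, with values from 4.20 to 13.43, and the unit was read from this range. The values were used as deposited, with normalization, summarization and genome build not given in the sources used here. Of the probe sets 23521 named 1 gene, 1814 several and 8458 none. Each gene kept its probe set of highest mean, which mattered for Slco2b1 alone among the 56 transporters (57 probe sets).

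The test was limma 3.58.1 in R 4.3.3 (lmFit, eBayes, two-sided, Benjamini-Hochberg over the genes tested) on all 8 arrays, with 5 residual degrees of freedom for genotype, 4 with sex and 3 with the 5 combinations of genotype and sex. The fit was tested on simulated data. Sex was read from Xist against Uty, Kdm5d and Eif2s3y. The transporters, the role groups and all lists were chosen with earlier results of these data known. Transporters above the filter may be named with values per array (those that passed, up to 12 by size in each direction, and the highest of each role), those under it with means or ranges, and other genes from the lists only, besides Col4a3 as a check of the labels. Same-numbered mice were not treated as pairs. Their deviations from the group means correlated between -0.58 and 0.26. Sex was not removed from these deviations, so they cannot show or exclude pairs. The labels name no shared source. The titles number the replicates within a genotype and do not say that they are separate mice. Each array was taken as 1 mouse. On that reading p-values measure the spread between these mice, and precision is limited by the number of arrays. Alternatives were the filter, the scaling, the rule for probe sets, an intensity trend, array weights, a replicate block and leaving out each array. Osteopontin itself was not analysed here. Python 3.11.15, Biopython 1.88 and matplotlib 3.10.9 were used for promoters and plots.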

Additional observations from a re-analysis of the deposited data

How the results depend on the processing

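No transporter that passed in the fits as reported turned its direction under any setting run, but counts changed. Slco2b1, which passed in none of them except with 5 combinations of genotype and sex, passed as higher in females without single mutant 2 and as lower in females without double mutant 3. With the sex term, the count in double mutants against wild type (17) was 6 without a filter, 11 after quantile normalization or cyclic loess and 9 with 5 combinations of genotype and sex. It ran from 3 to 14 when each array was left out, with 3 without wild type 2, 9 without wild type 1 or single mutant 2, and 11 without single mutant 3 or double mutant 1. The count in single mutants against wild type (16) was 7 without a filter, 10 with array weights and 0 to 19 with an array left out, namely 0 without single mutant 2 and 4 without wild type 2. The count between female and male mutants (11) was 5 without a filter, 6 with array weights and 5 to 13 with an array left out, namely 5 without single mutant 2, 6 without double mutant 1 and 7 without single mutant 3. Without the sex term the count of 0 became 13 in double mutants (4 higher, 9 lower) and 10 in single mutants (2 higher, 8 lower) with array weights, and in double mutants 4 in a fit of the 2 groups alone and 0 to 6 with an array left out (6 without single mutant 2, 1 without double mutant 3). The interaction of genotype with sex gave 1, Slco2b1, in place of 0 with the filter at the 50th percentile, after quantile normalization, after median centring and with an intensity trend and robust prior, and could not be fitted without single mutant 2 or double mutant 3. Double against single mutants gave 0 under every setting run, leaving out each array included (0 to 0). With the replicate number as a block, 16 passed in double mutants, 16 in single mutants and 14 between the sexes, which moves no count by over 1.5 times. The numbers are not shown to pair mice. The cause of the shifts in counts was not tested. A fit without a filter adjusts for more genes, and a fit with an array left out rests on fewer arrays. A floor at the 50th percentile was added after the data were seen and changed no count by over 1.5 times. With 1 male per mutant group and 2 wild type mice, every sex-adjusted difference rests on 2 male mutants.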

Other observations

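Markers of other kidney cells were measured as well. Slc12a1 is the sodium, potassium and chloride carrier of the loop of Henle. Its level was 11.41, 11.42 and 10.42 in double mutants, 11.66, 10.73 and 11.54 in single mutants, and 11.09 and 11.18 in wild type. The female mutants lay above both wild type mice and the male mutants below them. Adjusted for sex, the difference was -0.67 (adjusted p = 0.0153) in double mutants and -0.44 (adjusted p = 0.0435) in single mutants. Without the sex term it was -0.05 (adjusted p = 0.953) and 0.18 (adjusted p = 0.781). Umod, the other loop marker, did not pass. Calb1, a calcium binding protein of the distal tubule, differed by -1.59 (adjusted p = 0.0158) in double mutants and -1.38 (adjusted p = 0.0207) in single mutants with the sex term. Without that term it was -0.74 (adjusted p = 0.447) and -0.54 (adjusted p = 0.554). Its female mutants ranged from 10.26 to 11.22 and its male mutants were at 9.21 and 9.77, beside 10.99 and 10.95 in wild type. Slc12a3, Aqp2 and Scnn1g did not pass. Kdr, a growth factor receptor of endothelium, differed by -0.92 (adjusted p = 0.0114) in double mutants and -0.75 (adjusted p = 0.0161) in single mutants with the sex term. Without that term it was -0.52 (adjusted p = 0.295) and -0.35 (adjusted p = 0.435). Its female mutants ranged from 8.20 to 8.58 and its male mutants were at 7.70 and 7.87, beside 8.71 and 8.53 in wild type. Pecam1, Cdh5 and Emcn did not pass. Slc7a13, an amino acid carrier of the last proximal tubule segment and part of the proximal tubule list, ranged from 4.78 to 5.30 in females and from 9.18 to 11.20 in males, and its fitted difference between female and male mutants had an adjusted p of 7.41e-05. With every value under the median of all values (5.20) set to it, the signal was at least 18-fold lower in female than in male mutants.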
